A study of Sus scrofa with 96 samples.

Results

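Among 25322 genes counted in the livers of boars, 11 were switched: each had no read in at least 8 livers and a clear level in at least 8 others. Level was measured in CPM, the reads on a gene scaled to 1000000 reads on all genes of that library. The genes were chosen by their liver counts: a gene belonged to the set when it had 0 counts in 8 or more, and 3 CPM or more in 8 or more, of the 46 livers whose libraries were made with the stranded mRNA kit. A block of identifiers used for short non-coding RNAs was left out, which removed none that met the other conditions. In all, 10804 genes outside that block met the condition on absence and 9533 met the condition on level, and only these 11 met both.

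The animals were 48 commercial Danish Landrace male pigs, not castrated, raised with free access to feed, and sorted by the breeding value of their sires for boar taint (BT), an off-odour of pork from entire males. Each of the 3 merit groups, high, medium and low, had 16 pigs, and the liver and a testis of every pig were sequenced, giving 96 libraries. Pigs by the same sire fall in the same merit group, so sire and merit cannot be told apart. Samples of lower RNA quality were prepared with a total RNA kit (2 livers and 14 testes), and 34 pigs had stranded mRNA libraries from both tissues. All 46 stranded mRNA livers carry 1 batch label. The stranded mRNA testes carry 2: all 14 of the high group are in batch 2, all 7 of the low group in batch 1, and the medium group has 7 in batch 1 and 6 in batch 2. The livers held 3728775 to 12156143 reads on genes (median 9472046), so that a single read was worth 0.0823 to 0.268 CPM, and a count of 0 allows a level of up to 0.247 to 0.805 CPM (3 counts, counting error only). The testes held 4881825 to 18045966. The liver markers ALB and TTR were high in every liver (46098 to 200979 and 3933 to 15014 CPM), against testis medians of 6.02 and 0.504 CPM.

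Genes with a constant role in the cell are usually read in every sample of a tissue. NDUFA6 encodes a subunit of complex I, the entry point of the mitochondrial respiratory chain, and DMAC1 a protein needed to assemble the distal membrane arm of the same complex. SMDT1 encodes EMRE, a small essential partner of the calcium channel in the inner mitochondrial membrane. TAF13 is a subunit of the general transcription factor TFIID. Of the other members with a name, SNCG encodes gamma-synuclein, known from nervous tissue and fat, LYPD6B a membrane-anchored protein of the Ly6 family, and LUZP2 a leucine zipper protein. The remaining 4 members, ENSSSCG00000021159, ENSSSCG00000027958, ENSSSCG00000029446 and ENSSSCG00000029500, had no symbol. In a bulk tissue sample, fewer cells that express a gene and less RNA per cell cannot be told apart.

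By the smaller of the number of livers at 0 counts and the number at 3 CPM or more, the most even divisions were those of DMAC1, ENSSSCG00000027958, ENSSSCG00000021159, LUZP2 and SMDT1. DMAC1 had no read in 14 livers, stood at 3 CPM or more in 28 and lay between in only 4. Its highest value was 19.9 CPM, and no liver fell between 0.156 and 3.20 CPM, a step of 20.5-fold that 28 livers stood above and 18 below. Those 18 livers held at most 1 read of the gene each. NDUFA6 also stood at 3 CPM or more in 28 livers, with 9 at 0. Its empty stretch ran from 0.344 to 2.47 CPM, with 29 livers above and 17 below, and its highest value was 13.6 CPM. So a complex I subunit gene and a gene of complex I assembly were each read clearly in about as many livers, with a step in level rather than a gradient.

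SMDT1 was high in few livers, and there it reached the highest median of the set, 13.4 CPM over the 10 livers at 3 CPM or more (highest 22.5). The other 36 livers held at most 4 reads each, and nothing lay between 0.42 and 8.82 CPM. SNCG followed with a median of 10.6 CPM over 10 livers and a maximum of 20.9, and had no read in 31 livers. ENSSSCG00000021159 had no read in 27 livers and a median of 6.24 CPM over the 13 at 3 CPM or more, with the highest single value of the set (30.6 CPM). DMAC1 (6.69 CPM) and LYPD6B (6.01 CPM) completed the 5 members with the highest medians. These are levels per library, not per transcript length, so they do not rank the genes against one another by number of transcripts.

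LUZP2 was absent from 26 livers and at 3 CPM or more in 11, with no liver between 0.409 and 3.47 CPM and a maximum of 12.3 CPM. ENSSSCG00000027958 had no read in 15 livers, and an empty stretch from 0.259 to 1.54 CPM separated 22 livers from 24. In all, 7 of the 11 members had a step of at least 4-fold between neighbouring livers with a read, a criterion chosen after the values were seen.

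The other 4 members had no such step. LYPD6B ran from 0 (8 livers) to 11.2 CPM without a break, with 30 livers between the 2 thresholds. TAF13 had no read in 10 livers and never passed 5.33 CPM, and its largest step was 3.28-fold. ENSSSCG00000029446 and ENSSSCG00000029500 had no read in 8 livers each and reached 7.96 and 11.3 CPM, with largest steps of 2.31-fold and 3.65-fold. LYPD6B was nearest to both thresholds inside the rule, with 8 livers on each side, and TAF13 also had only 8 at 3 CPM or more. Just outside, ENSSSCG00000006771, ENSSSCG00000010992 and ENSSSCG00000021940 each lacked reads in 7 livers, and had 16, 11 and 15 livers at 3 CPM or more.

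**Figure D1:**
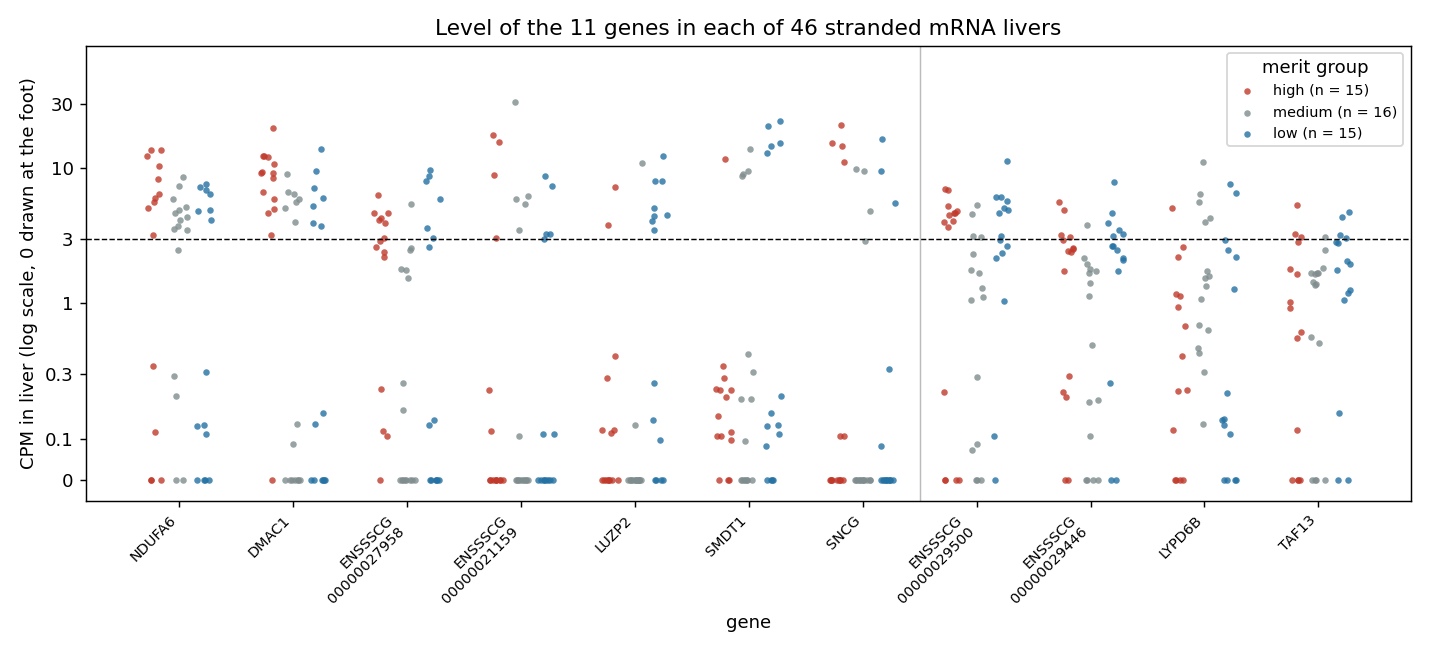
Each point is 1 of the 46 stranded mRNA livers, coloured by merit group, with CPM on a log axis and livers without a read drawn at the foot. The dashed line marks 3 CPM. The 7 genes left of the grey line have a step of at least 4-fold between a low and a high set of livers, as DMAC1 does from 0.156 to 3.20 CPM. The 4 to its right have smaller steps.

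A liver had 1 to 8 of the 11 genes at 3 CPM or more (median 3) and lacked reads of 1 to 7 of them (median 3.5), so no liver had all of them on or all of them off. Among the 55 pairs of members, the number of livers in which both genes had the same state (0 counts, between, or 3 CPM or more) ran from 6 to 37 of 46.

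The most alike were ENSSSCG00000021159 and SNCG, with the same state in 37 livers. All 11 livers above the step of SNCG were among the 14 above the step of ENSSSCG00000021159 (100% of the former, 78.6% of the latter), and both genes had no read in 25. In testis, 7 of the 10 animals with a read of SNCG also had one of ENSSSCG00000021159, which was read in 9. NDUFA6 and DMAC1 shared a state in 26 livers, being both on in 20 of the 28 that each had.

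ENSSSCG00000029446 and ENSSSCG00000029500 shared a state in 25 livers and moved together in level as well: their Spearman correlation over the 46 livers was 0.89, a description over libraries that share a batch. Every one of the 30 livers in which ENSSSCG00000029446 was at 1.14 CPM or more had ENSSSCG00000029500 at 1.04 CPM or more. In the 34 testes, where neither passed 1.10 CPM, the correlation was -0.49.

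**Figure D2:**
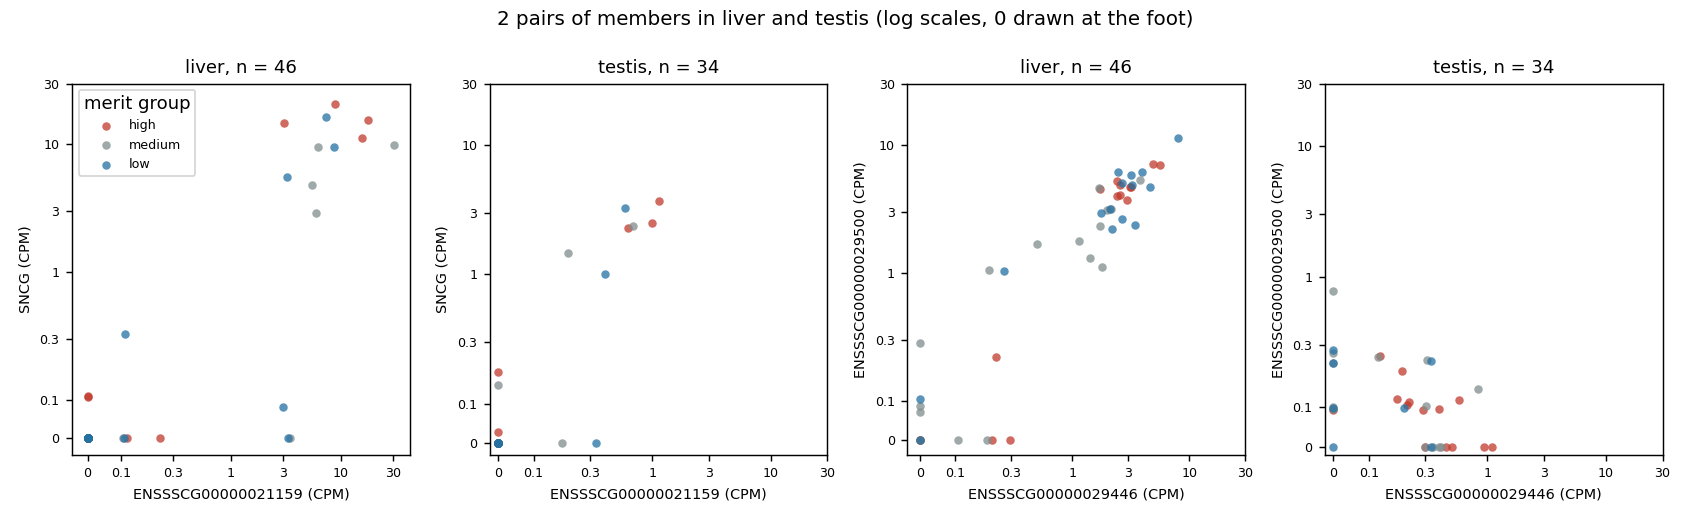
CPM of 2 pairs of members in 46 livers and 34 testes, on log axes with 0 at the foot and points coloured by merit group. The 11 livers with SNCG above its step are among the 14 with ENSSSCG00000021159 above its step, and ENSSSCG00000029446 and ENSSSCG00000029500 rise along 1 line in liver (rho 0.89) and not in testis (-0.49).

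NDUFA6 and SMDT1 are next to each other in the RefSeq gene order of the later pig assembly Sscrofa11.1. All 10 livers with SMDT1 at 3 CPM or more had NDUFA6 as well, at 2.47 to 8.64 CPM, whereas among the other 36 livers 19 had NDUFA6 at 0.5 CPM or more. The 6 testes with SMDT1 at 3 CPM or more all had NDUFA6, at 4.70 to 12.5 CPM, against 18 of the other 28. Those 6 testes are from animals whose liver is among the 10, so they add no new animals.

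Liver and testis of the same animal shared the state of 2 members beyond the test threshold with 1 read as the limit, and of 7 members at 0.5 CPM. Testis values were not used to choose the genes, so this was tested with Fisher's exact test (two-sided) over the 34 animals, for every gene on and off in at least 5 animals in each tissue, with Benjamini-Hochberg adjustment over those genes. With 1 read or more taken as detected, 1.38% of the 1236 genes tested were called (17 genes, all detected in the same animals rather than in opposite ones). Of the members, 7 could be tested and 2 were called. ENSSSCG00000021159 was detected in both tissues of 9 animals and in neither of 21, with 4 in liver only and none in testis only (adjusted p = 0.00281). DMAC1 was detected in both tissues of 23 and neither of 7, with 2 in liver only and 2 in testis only (adjusted p = 0.0173). SNCG had the same state in 28 of 34 animals and missed the threshold (adjusted p = 0.0624), as did ENSSSCG00000027958 (25 of 34, adjusted p = 0.598) and NDUFA6 (28 of 34, adjusted p = 0.745).

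A single read counts as detection there, and livers in the low state of NDUFA6, LUZP2 or SMDT1 held up to 4. With detection set at 0.5 CPM, an alternative planned beside the main test, 3.37% of 594 genes were called (20 genes) and 7 of the 8 members that could be tested were among them. The rule puts 8 or more livers at 0 counts and 8 or more at 3 CPM or more for each member. Other genes tested needed only 5 animals on each side of the limit and can lie close to it. The share of members called is therefore not set against that of all genes. DMAC1 had the same state in liver and testis in 34 of 34 animals, on in 23 and off in 11 (adjusted p = 5.19e-07). ENSSSCG00000027958 did so too, on in 17 and off in 17 (adjusted p = 1.7e-07). NDUFA6 and SNCG matched in 33 animals (adjusted p = 8.3e-06 and 8.83e-05), SMDT1 and TAF13 in 31 (0.00247 and 0.00229), and ENSSSCG00000021159 in 29 (0.0283). LYPD6B matched in 20 of 34 and was not called (adjusted p = 1). The members that could not be tested matched in fewer animals. ENSSSCG00000029446 matched in 10 of 34, with 21 on in liver only, and ENSSSCG00000029500 in 8, with 25 on in liver only. LUZP2 matched in 5, with 29 on in testis only. At 3 CPM, 1.97% of 406 genes were called (8 genes), with 3 of the 4 members tested among them: NDUFA6 and SMDT1 then matched in 34 of 34 animals and DMAC1 in 29.

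The testis levels of animals on and off in liver are given here for the 7 members called at 0.5 CPM. These were called for matching states at that limit, which favours separate ranges. Ranges of other genes were not compared, so separation is not a trait of the members. In animals whose liver had DMAC1 at 0.5 CPM or more, testis DMAC1 ran from 2.08 to 9.31 CPM (median 3.60), and in the others from 0 to 0.121. For ENSSSCG00000027958 the ranges were 1.61 to 7.59 CPM (median 2.94) and 0 to 0.194 CPM. For SMDT1 they were 20.1 to 50.0 CPM and 0 to 1.33 CPM, with medians in the animals on in both tissues of 44.9 CPM in testis and 12.3 CPM in liver. For NDUFA6 they were 4.51 to 18.1 CPM and 0 to 0.877 CPM. For SNCG they were 0.175 to 3.68 CPM and 0 to 0.139 CPM, the animal at 0.175 CPM being the 1 that did not match, so that these ranges lay close together. Those of TAF13 overlapped (0.41 to 3.22 CPM against 0 to 1.57 CPM), and so did those of ENSSSCG00000021159, at 0 to 1.15 CPM against 0 in every other animal.

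Batch and merit group overlap in the testes, so the matches were also counted within batch. At 0.5 CPM, DMAC1 and ENSSSCG00000027958 matched in 14 of 14 animals of batch 1 and 20 of 20 of batch 2, NDUFA6 and SNCG in 14 and 19, and SMDT1 in 14 and 17. ENSSSCG00000021159 matched in 12 and 17, and TAF13 in 13 and 18. With so few animals, Fisher's exact test could be run for only 1 member in batch 1, DMAC1, which was called (adjusted p = 0.0198). In batch 2 it could be run for 4, and NDUFA6 (adjusted p = 0.00544) and ENSSSCG00000027958 (adjusted p = 0.00344) were called. Over all genes, 3 of 102 tested were called in batch 1 and 9 of 241 in batch 2. With 1 read as the limit, no gene was called within either batch by this test (at an unadjusted p under 0.05, 10 of 225 in batch 1 and 33 of 578 in batch 2).

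**Figure D3:**
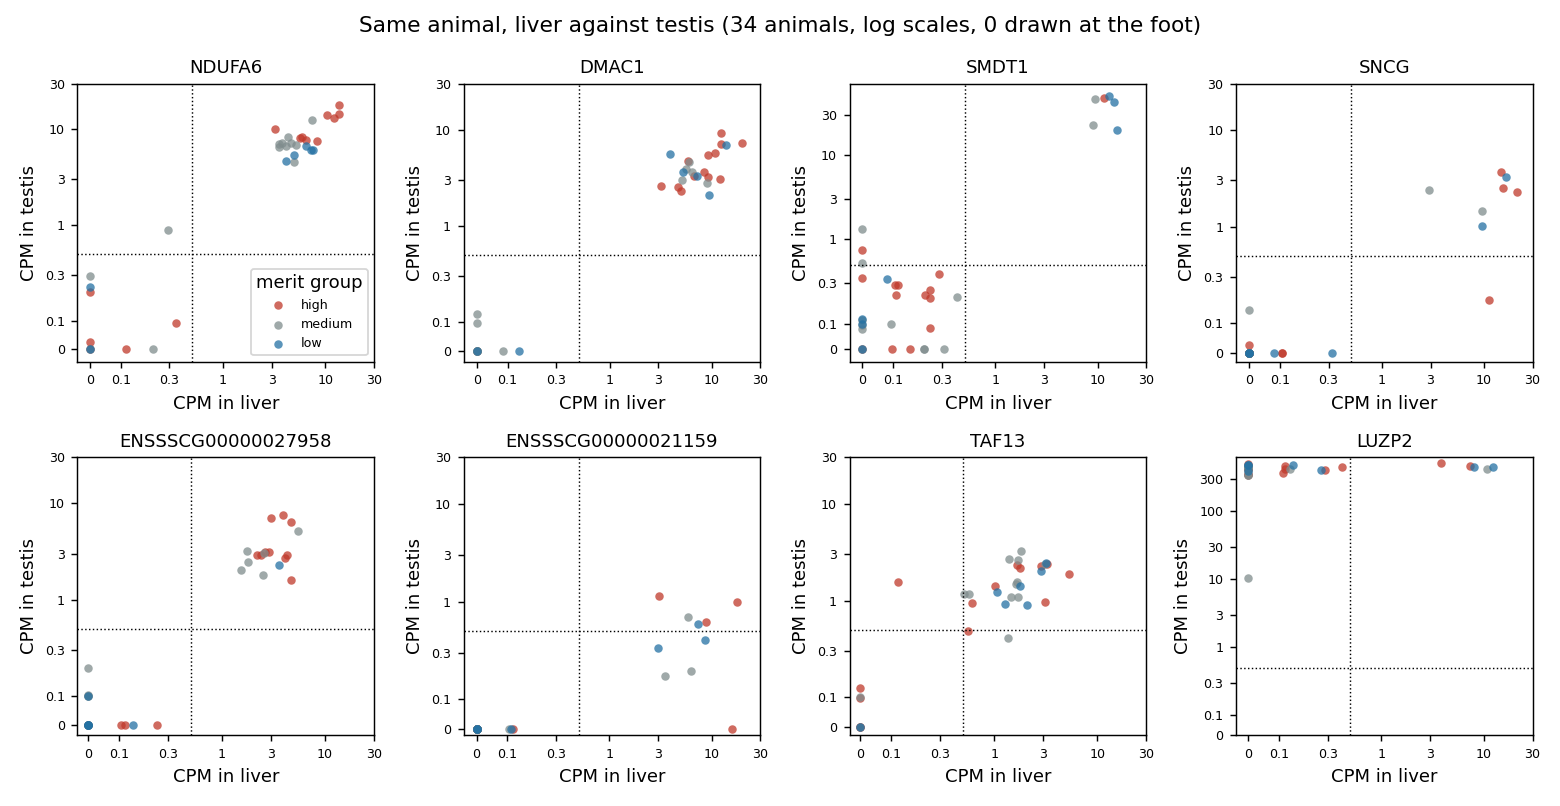
CPM in liver (horizontal) and testis (vertical) of the same 34 animals for 8 members, on log axes with 0 at the foot, where points overlap; dotted lines mark 0.5 CPM. DMAC1 and ENSSSCG00000027958 have animals only in the lower left and upper right fields, while LUZP2 is high in testis whatever its level in liver.

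Liver and testis levels were compared by rank with a permutation test (100000 resamples, two-sided, 9 relations computed). The 4 members without a step were compared over all 34 animals, and the others over the animals at 0.5 CPM or more in both tissues where these numbered at least 6, so the coefficients of the 2 kinds are not comparable. For TAF13, over all 34 animals, Spearman's rho was 0.73 and Pearson's r on log2(CPM + 0.5) was 0.82 (both p = 1e-05, the smallest the resamples can give). Without the 2 animals farthest from the liver median r was 0.78, and rho was 0.81 in batch 1 and 0.72 in batch 2. NDUFA6 (rho 0.46, permutation p = 0.0288, n = 23, r = 0.68, p = 0.00025) and DMAC1 (rho 0.50, permutation p = 0.0155, n = 23, r = 0.54, p = 0.00747) were compared within the high state. Without the 2 farthest animals, rho was 0.29 (permutation p = 0.199) and 0.38 (permutation p = 0.0931), and r was 0.50 and 0.42, so these relations rested on those animals by rank. Within batches, rho was -0.19 and -0.14 in batch 1 against 0.71 and 0.71 in batch 2. LYPD6B (rho 0.33, p = 0.0532, r = 0.26, p = 0.131), ENSSSCG00000029500 (rho 0.27, p = 0.121, r = 0.11, p = 0.559), ENSSSCG00000029446 (rho -0.043, p = 0.812, r = -0.099, p = 0.576), all over 34 animals, and ENSSSCG00000027958 over 17 (rho 0.21, p = 0.422, r = 0.37, p = 0.152) gave no relation beyond the permutation spread. By exact permutation, neither did SNCG over 7 animals (rho 0.32, p = 0.498, r = 0.27, p = 0.563) or SMDT1 over 6 (rho -0.20, p = 0.714, r = -0.062, p = 0.878).

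LUZP2 was on in every testis. Its testis median was 438 CPM, the highest of the members, and it lay between 339 and 515 CPM in 33 of the 34 testes. The next highest testis medians were those of NDUFA6 (6.57 CPM) and DMAC1 (3.01 CPM). The remaining testis, of the medium group in batch 1, had LUZP2 at 10.5 CPM. That library stood apart from the rest, with a median rank correlation to the other testes of 0.824 where the next lowest library had 0.972. Its summed level of 8 genes of germ and Leydig cells was 738 CPM against 22727 to 45179 in the other 33, and it had 5002 CPM of DCN, a gene of connective tissue, against 103 to 260. Without this library the number of members called at 0.5 CPM stayed at 7, among 20 of 561 genes tested. Since testis RNA is rich in LUZP2, the same 8 genes were read in liver: they summed to 0.103 to 8.47 CPM (median 0.87) in the 11 livers with LUZP2 at 3 CPM or more, and to 0 to 3.49 CPM (median 0.642) in the 26 without a LUZP2 read. Their part in the LUZP2 states was not tested. No member lacked reads in all testes, but SNCG and ENSSSCG00000021159 had none in 24 and 25 of 34.

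NDUFA6 and DMAC1 each had a mirror gene. For every member, the gene whose rank over the 46 livers ran most opposite was sought among the 12198 genes with a mean count above 5, and for these 2 members alone the same gene also ran opposite in testis below a correlation of -0.6. The search came after the values were seen, and both tissues entered the choice of these 2 pairs. Their opposite course in liver and in testis therefore describes the choice. Against NDUFA6 stood ENSSSCG00000021119. In 17 livers NDUFA6 was at most 0.344 CPM and the mirror gene at 5.31 to 11.6 CPM. In 7 livers NDUFA6 was at 4.66 to 13.6 CPM and the mirror gene at most 0.114 CPM. In the other 22 both were present, NDUFA6 at 2.47 to 8.34 CPM and the mirror gene at 0.844 to 6.17 CPM. No liver lacked both.

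Against DMAC1 stood ENSSSCG00000022796, with the same 3 kinds of liver. In 18 livers DMAC1 was at most 0.156 CPM and the mirror gene at 5.32 to 25.7 CPM, in 9 livers DMAC1 was at 5.88 to 19.9 CPM and the mirror gene at most 0.115 CPM, and in 19 both were present at near equal levels. In those 19, DMAC1 made up 39.7% to 56.0% of the sum of the 2 genes (median 50.6%). NDUFA6 made up 35.2% to 86.4% of its sum (median 56.9%).

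The testes held the same 3 kinds, which the choice of pairs that also ran opposite in testis favours. For DMAC1, 7 testes had DMAC1 alone, 16 had both and 11 had ENSSSCG00000022796 alone. For NDUFA6, 5 had NDUFA6 alone, 19 had both and 10 had ENSSSCG00000021119 alone. No testis lacked both genes of a pair. An animal's liver and testis were of the same kind in 33 of 34 animals for DMAC1 (14 of 14 in batch 1, 19 of 20 in batch 2) and in 32 of 34 for NDUFA6 (13 of 14 and 19 of 20). The sum of a pair varied less between livers than either gene, as a search for opposite genes in these livers favours. On log2(CPM + 0.5), the SD over the 46 livers was 1.97 for DMAC1, 1.81 for its mirror gene and 0.547 for their sum. For NDUFA6, its mirror gene and their sum it was 1.75, 1.39 and 0.36. Over the 34 testes, which entered the choice through the limit on the correlation, the SDs were 1.54, 1.51 and 0.261 for the pair of DMAC1. They were 1.85, 1.44 and 0.401 for that of NDUFA6. A read that aligned equally well to more than 1 place was not counted, and how alike the 2 genes of a pair are in sequence was not tested.

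**Figure D4:**
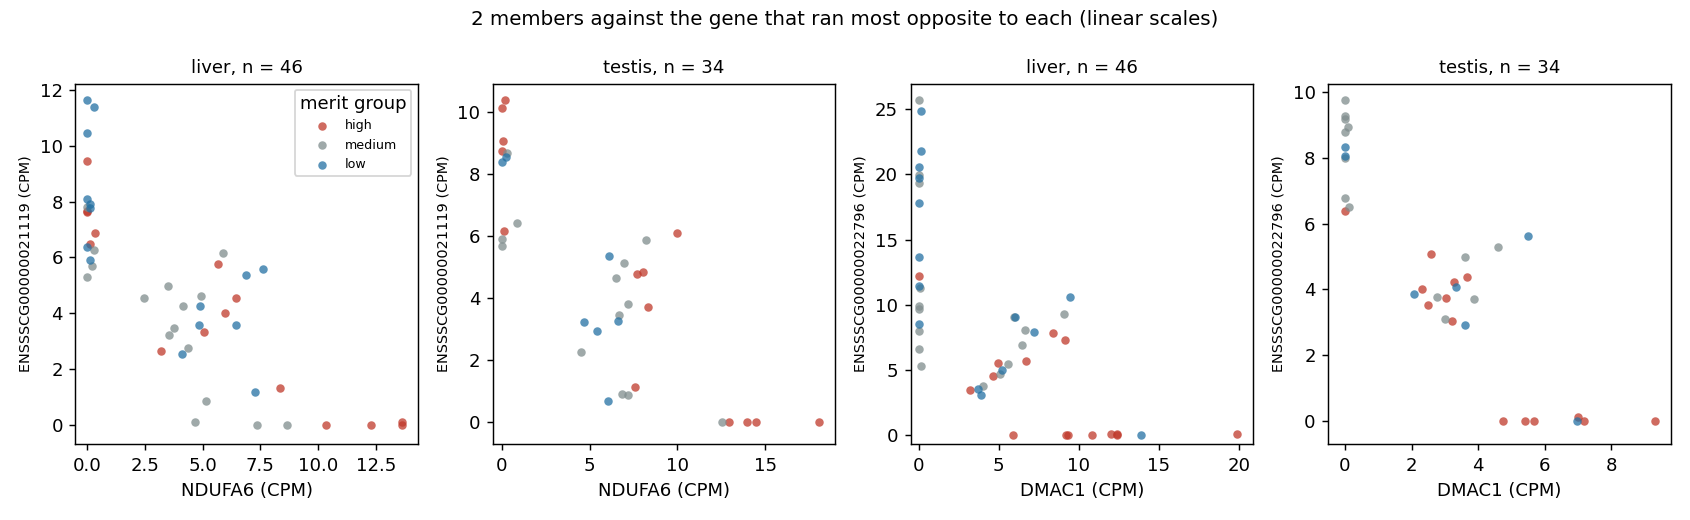
CPM of NDUFA6 and DMAC1 (horizontal) against ENSSSCG00000021119 and ENSSSCG00000022796 (vertical) in 46 livers and 34 testes, on linear axes and coloured by merit group. Points lie along the vertical axis, along the horizontal axis or between them with both genes present, and none lies at the origin.

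Between merit groups, DMAC1 was on in most livers of the high group, a difference that missed the threshold of the main test in level. It ran from 0 to 19.9 CPM (median 9.15) in the high group, from 0 to 9.10 (median 0.11) in the medium group and from 0 to 13.9 (median 0.156) in the low group, so the groups overlapped. It stood above its step in 14 of 15 livers of the high group, 7 of 16 of the medium group and 7 of 15 of the low group. Levels of all 12225 genes with a mean count above 5 were compared with limma over all 48 livers. Between high and low merit, 3.36% of them were called (411 genes, Benjamini-Hochberg adjusted p under 0.05), and none of the 11 members. Of the 411 genes, 395 were lower and 16 higher in the high group, against 104 lower and 37 higher with TMM factors, which set a common scale between libraries. The edgeR test called 1 gene, DESeq2 3 and limma without sample quality weights 1. The 3 members with the lowest p were DMAC1 (log2 fold change 2.94 ± 0.915 SE, limma adjusted p = 0.0567, or 3.02 and 0.0442, past the threshold, with the library kit as a covariate), SMDT1 (-2.74 ± 1.13, adjusted p = 0.172) and LUZP2 (-2.00 ± 0.917, adjusted p = 0.241). Of the 11 members, 3 had an unadjusted p under 0.05 with limma and 3 with edgeR, against 2097 and 1258 of all 12225 genes. The median log2 fold change was -0.43 over the members and -0.075 over all genes tested.

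The mirror gene of DMAC1 moved the other way between these groups (log2 fold change -3.73 ± 0.844, limma adjusted p = 0.0161), and was singled out after its values were seen. Livers with DMAC1 alone numbered 8 in the high group, 0 in the medium group and 1 in the low group, and livers with ENSSSCG00000022796 alone numbered 1, 9 and 8. With the counts of both genes summed, the difference between high and low merit was -0.43 ± 0.18 (limma, adjusted p = 0.19). For NDUFA6, the difference was 0.14 ± 1.03 (limma, adjusted p = 0.967), but 1.05 with edgeR, 1.06 with DESeq2 and 1.43 without sample quality weights, none of them called. The difference of the sum with its mirror gene was 0.0044 ± 0.136 (limma, adjusted p = 0.993). In the testes, DMAC1 was at 0.5 CPM or more in 13 of 14 of the high group and 5 of 7 of the low group, and in 2 of 7 and 3 of 6 of the medium group in batches 1 and 2. These are the same animals and add no new ones.

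Between medium and low merit, 15.6% of the genes were called by limma (1904 genes) and 4 of the 11 members. LUZP2 was lower in the medium group (log2 fold change -3.33 ± 1.12 SE, adjusted p = 0.0358): it was above its step in 1 of 16 medium livers and 8 of 15 low livers, with medians of 0 and 3.47 CPM. ENSSSCG00000029446 (-2.56 ± 0.856, adjusted p = 0.0347) and ENSSSCG00000029500 (-2.57 ± 0.911, adjusted p = 0.0459) were lower as well, with medium medians of 0.82 and 1.20 CPM against 2.64 and 3.16 CPM in the low group. LYPD6B was higher in the medium group (2.18 ± 0.686, adjusted p = 0.0257), where every liver had a read of it and the median was 1.45 CPM against 0.14 CPM. In all 4 genes the ranges of the groups overlapped. Fitted fold changes of genes with many livers at 0 depend on the small count added to each value and are not bounds. These calls did not hold with the edgeR quasi-likelihood test, which called no member and 216 genes in all. At an unadjusted p under 0.05 it had 2 of the 11 members and 2455 of all 12225 genes. The median over all genes was -0.19 in this comparison and moved to -0.011 with TMM factors. Under those factors LYPD6B alone was called (adjusted p = 0.0481), and LUZP2 (adjusted p = 0.086), ENSSSCG00000029446 (0.101) and ENSSSCG00000029500 (0.127) were not. The levels of LYPD6B over the livers also ran with the number of reads on genes (rho 0.38). For ENSSSCG00000029446, LUZP2 and ENSSSCG00000029500 rho was -0.31, -0.26 and -0.21, and for the members not called it ran from -0.32 to -0.0092. The part of the number of reads in these results was not tested.

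Between high and medium merit, 0.0982% of the genes were called by limma (12 genes) and none of the members. Of the 11 members, 4 had an unadjusted p under 0.05 with limma and 4 with edgeR, against 1806 and 1905 of all 12225 genes. By limma, the members of lowest p were LYPD6B (log2 fold change -2.58 ± 0.694, adjusted p = 0.0933) and DMAC1 (3.93 ± 1.08, adjusted p = 0.0945). The median over the members was 0.89 here, against 0.088 over all genes, and -1.04 against -0.19 between medium and low merit.

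The number of livers without a read was also compared across the 3 groups with Fisher's exact test, for the 3456 genes off in 8 or more and read in 8 or more of the 46 livers. Of these, 0% were called after adjustment (255 had an unadjusted p under 0.05), so no member was, and 3 members had an unadjusted p under 0.05. LUZP2 had no read in 8 of 15 high, 14 of 16 medium and 4 of 15 low livers (exact p = 0.00278, adjusted p = 0.273). ENSSSCG00000027958 had none in 1, 8 and 6 livers (exact p = 0.0272, adjusted p = 0.584), and DMAC1 none in 1, 7 and 6 (exact p = 0.0466, adjusted p = 0.646). The other 8 members lay further from a difference, with ENSSSCG00000021159 absent from 9, 10 and 8 livers and SNCG from 9, 12 and 10. With states divided at 0.5 or 3 CPM, 1 of 2434 and 2 of 2049 genes were called, and no member. At an unadjusted p under 0.05 were 2 and 3 members, against 230 and 257 genes. DMAC1 had an exact p = 0.00576 at both limits (adjusted p = 0.242 and 0.199). LUZP2 had 0.00555 at both (adjusted p = 0.241 and 0.196), and ENSSSCG00000027958 0.131 and 0.0236 (adjusted p = 0.612 and 0.304).

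**Figure D5:**
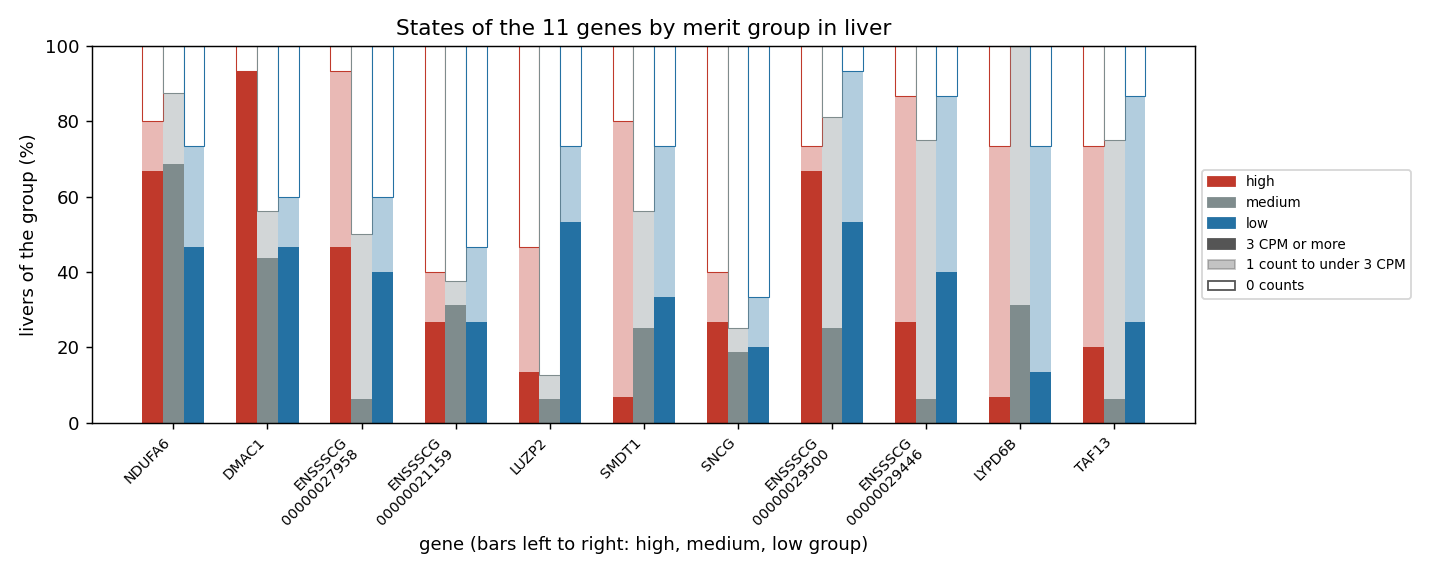
Share of livers in each state for the 11 members, with bars for the high (n = 15), medium (n = 16) and low (n = 15) groups side by side: full colour is 3 CPM or more, pale is a read but less, white is 0 counts. DMAC1 is at 3 CPM or more in 14 of 15 high livers against 7 of 16 and 7 of 15, and LUZP2 in 8 of 15 low livers against 2 of 15 high and 1 of 16 medium ones.

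Of the 16 liver cell markers looked for, 9 had a symbol in the files. The rank correlations of SNCG and ENSSSCG00000021159 across livers were -0.42 and -0.34 with ALB, and -0.40 and -0.35 with MARCO, a macrophage gene. With APOA1 and TTR, listed for the same cells as ALB, they were -0.36 and -0.37, and -0.21 and -0.045. ENSSSCG00000027958 ran against HBB, the blood haemoglobin gene (-0.44), and LYPD6B with ALB (0.42), but less with APOA1 (0.23) and TTR (0.14). Among the 8 testis genes, the largest coefficients were those of DMAC1 with TNP1 (0.50) and AKAP4 (0.43), NDUFA6 with AKAP4 (0.43) and LYPD6B with TNP2 (-0.49). The medians of TNP1, AKAP4 and TNP2 in liver were at most 0.11 CPM, and AKAP4 had no read in 26 livers. Over all 8 genes the coefficients ran from 0.21 to 0.50 for DMAC1, from -0.022 to 0.43 for NDUFA6 and from -0.49 to -0.105 for LYPD6B. These are descriptions over 46 libraries of 1 batch, in which every value is a share of its library, and the part of cell makeup in the states was not tested.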

How the data were processed

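Liver and testis RNA of 48 pigs was sequenced on paired-end libraries. According to the study's methods and the submitters' processing notes, the authors trimmed reads with cutadapt 1.8.1 and Trimmomatic 0.33, aligned them with STAR to Sus scrofa 10.2 (Ensembl 79) and counted them per gene with HTSeq 0.6.0 at default settings, which count uniquely placed reads by strand. The deposited values are raw counts, 1 table per library. Rows that name no gene were left out: in the stranded mRNA livers, reads on no gene made up 24.8% to 51.6% of all and reads not placed uniquely 3.53% to 9.83%. CPM was computed over gene rows. Symbols came from a table that named 11804 of 25322 identifiers and 7 of the 11 members. RefSeq's Sscrofa11.1 was used only for gene order, and no sequence was read.

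Merit groups, taken from the sample titles, were compared with limma 3.58.1 (voom, sample quality weights, R 4.3.3) as in the study's methods, and with edgeR 4.0.16 and DESeq2 1.42.0 as alternatives. Fisher's exact tests and permutation tests (numpy 2.4.6) are described where used. p-values were adjusted by Benjamini-Hochberg over all genes tested, and all tests were checked on simulated data. Members and lists were chosen with earlier results of these data known. By rule, the text names the 5 members with the most even division and the 5 with the highest median, those nearest each threshold, those called or of lowest p in each comparison, the 5 of lowest p between tissues, the 3 of highest testis median and the 3 most alike pairs. The mirror genes, the 8 testis genes, the comparison with NDUFA6 of its neighbour SMDT1 and the step criterion were chosen after values were seen. One total RNA testis library held 379942 reads on 940 genes and none on a member. It was used only where all animals or the total RNA testes are named. Some animals share a sire, so animals of a group are not fully independent. Liver was sampled directly after slaughter and the testis after cold storage of the carcass. One marker gene is not reported here.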

Additional observations from a re-analysis of the deposited data

Results flagged for a closer look

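The values of each member were examined in testis groups of 4 to 10 libraries of 1 kit, batch and merit group. A set entered only where its highest value was 3 CPM or more. Of 20 such sets, 7 held a value whose gap to its nearest neighbour was large for the range of the group (Dixon's 95% limit). That limit is made for values with a normal spread, which genes with 2 states do not have. The number marked is therefore not set against chance. For genes with 2 states a lone animal in the other state is marked this way. SMDT1 was the highest by far in 1 of 7 medium testes of batch 1 (22.8 CPM, next 0.205), in 1 of 6 medium testes of batch 2 (47.0 CPM, next 1.33) and in 1 of 9 low testes prepared from total RNA (43.0 CPM, next 0.532). ENSSSCG00000027958 was at 3.17 CPM in 1 of 7 medium testes of batch 1 (next 0.102). SNCG was at 3.25 CPM in 1 of 7 low testes of batch 1 (next 1.01).

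LUZP2 was marked in 2 groups, each time by a low value. In the medium group of batch 1 it was at 10.5 CPM in the testis library that stood apart from the rest, where the next lowest had 399 CPM. In the low group it was at 0 in the total RNA library that held reads on only 940 genes, where the next lowest of the 9 had 216 CPM.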

How the results depend on the processing

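The number of genes that met the rule was 11, and became 23 with 6 livers on each side in place of 8, 6 with 10 livers, 41 at a limit of 1 CPM and 0 at 10 CPM. Between high and low merit, no member was called under 7 of the 8 other settings, and 1 was, DMAC1, once the kit entered as a covariate. Between medium and low merit the 4 members called by limma became 0 with edgeR, 1 with TMM factors, 1 without sample quality weights and 2 without a minimum count. Over all genes, 1904 of 12225 became 216, 733 and 626 of 12225, and 1815 of 19457 without a minimum count. Between high and medium merit no member was called under any of 6 settings. For detection in the same animals, the 2 members called (17 of 1236 genes) became 7 at 0.5 CPM (20 of 594 genes), also without the testis library that stood apart. They became 4 with all animals (28 of 1837 genes), and 4 without the partial testis library (28 of 1744 genes). At 0.5 CPM, 1 member was called within batch 1 (3 of 102 genes) and 2 within batch 2 (9 of 241 genes). With 1 read as the limit 0 were called within batch 1 and 0 within batch 2. Without the 2 animals farthest from the liver median, rho fell to 0.29 for NDUFA6 and 0.38 for DMAC1, losing their calls, rose to 0.39 for LYPD6B, gaining one, and turned to -0.032 for ENSSSCG00000027958. Of 88 log2 fold changes between high and low merit under another setting, 76 kept direction and call, though not always size, and 11 turned, none of them called: ENSSSCG00000021159 was 0.81 with edgeR and 0.79 with DESeq2, ENSSSCG00000027958 was -0.010 and -0.0042, and SNCG, at -0.0033 by limma, was 0.87 with edgeR, 1.18 with DESeq2, 0.33 with TMM factors, 0.49 without quality weights, 0.19 without a minimum count, 0.0092 with high and low groups alone and 0.14 with the kit as a covariate. The cause of these changes was not tested. Several settings for the medium group, the 0.5 CPM counts within batch, and those that leave out a library were chosen after seeing the data. Merit groups hold different animals whose replicate numbers only name them, so merit was fitted without a block, and tissues were paired by pig number. In the shallowest liver 3 CPM is 11.2 reads, and a level under 0.268 CPM is less than 1 read.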

Other observations

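For SMDT1, the search for the most opposite gene over the livers named ENSSSCG00000025676 (rho -0.50, and -0.093 in testis). A different gene, ENSSSCG00000023108, was singled out after its values were seen. Its median was lower where SMDT1 was at 3 CPM or more, though the ranges overlapped in both tissues. That gene stood at 3.27 to 9.21 CPM (median 5.61) in the 10 livers with SMDT1 at 3 CPM or more and at 6.19 to 26.6 CPM (median 11.7) in the other 36. In testis the ranges were 12.2 to 18.6 CPM (median 13.4) over 6 libraries and 9.85 to 66.3 CPM (median 33.5) over 28. Unlike the mirror genes of NDUFA6 and DMAC1, it was read in each of these 46 livers and 34 testes.

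In the total RNA libraries, which took no part in choosing the members, some of the members held both states. LYPD6B, ENSSSCG00000021159, ENSSSCG00000029446, ENSSSCG00000029500 and NDUFA6 did not reach 3 CPM in any of them (highest 0.774, 0.464, 1.73, 1.98 and 2.80 CPM). Among the 14 total RNA testes, SMDT1 was at 3 CPM or more in 3 and reached 43.0 CPM, ENSSSCG00000027958 was at 3 CPM or more in 6 with 0 counts in 5, and SNCG had no read in 11 and reached 7.69 CPM. TAF13 reached 7.16 CPM there, above its highest level in any stranded mRNA testis (3.22 CPM), and NDUFA6 reached 2.80 CPM against 18.1 CPM. The 14 include the library with reads on only 940 genes, which had no read of a member and counts among those at 0. Kits were not compared by a test.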
